A study of Mus musculus with 12 samples.

Results

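Total RNA of mouse embryonic stem cells was followed over 3 lengths of exposure to 4-thiouridine (4sU), to describe how transcript levels at 60 min differed from those at 15 min. The libraries were chosen by their sample labels as the 6 total RNA libraries of the 12 in the series, with 2 each at 15, 30 and 60 min. All of them came from the DTCM23/49 XY line, grown on gelatin without feeder cells in medium with serum and LIF, and in all of them 200 µM 4sU was added to the medium. The replicates were 1 culture divided into 2 that were then passaged 8 times. The p-values thus measure the spread between the 2 libraries of each time, from sister cultures of 1 line. No library without 4sU and no control for time in handled medium was analysed here. Exposure to 4sU and time since the medium was handled therefore cannot be told apart, and the comparison is of a longer with a shorter exposure, not of exposed with unexposed cells.

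4sU is a uridine analog that cells take up and build into new RNA, where its sulfur atom allows that RNA to be tagged and pulled down. At high doses or over long exposures it is known to disturb rRNA production and to stabilise p53, the transcription factor that answers nucleolar and DNA damage by switching on genes such as the cell cycle inhibitor Cdkn1a and the p53 ligase Mdm2. Other stress pathways have their own early target genes, among them the integrated stress response, which acts through ATF4, the unfolded protein response of the endoplasmic reticulum, and the heat shock response. In total RNA, new transcripts are diluted by older ones, so that a change in transcription shows late in exons of stable mRNAs and earlier in introns, which are removed and degraded soon after they are made.

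The values are length-normalized abundances of exons and of introns, deposited on a scale on which the exons and introns of a library sum to about the same total, between 19988923 and 19992902. About 20 units were treated as 1 TPM, a scaling that the sources used here do not state, and depth is not known from the values. Between 146519 and 151969 values were present per library. Pearson's r between the logarithms of the exonic values of library pairs had a highest value per library of 0.933 to 0.948. The second replicate at 15 min and the first at 60 min stood apart from the others together. They correlated best with each other (0.947), and their weights on the leading principal component, which held 31.5% of the variance, were 0.521 and 0.478, against -0.625 to 0.001 in the other 4 libraries. The first replicate at 15 min and the second at 60 min also correlated best with each other (0.948). Likeness between 15 and 60 min thus crossed the replicate numbers in both pairs, which the labels do not explain, and whether the numbers are crossed was not tested.

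In exons, 1 of 13635 genes tested passed limma's adjusted p of 0.05 between 60 and 15 min (0.00733% of the genes), and an unadjusted p under 0.05 was reached by 180 (97 higher and 83 lower at 60 min). Leaving out 1 library at a time, this second number ranged from 139 to 567, the highest without the first 60 min library, and it was 103 with all 12 libraries in 1 fit. The gene was a small nucleolar RNA, described further on, and among the 10480 protein-coding genes none passed, nor in a fit of these alone. The median log2 fold change over all genes was -0.01, and 90% of genes lay between -0.44 and 0.45. The 95% interval of a gene's log2 fold change had a median half-width of 0.60. For 71.9% of genes this interval lay wholly between -1 and 1. The count of calls rests on single libraries: it was 37 without the first 60 min library, 33 without the second, 4 or 13 without either 30 min library and 1 without either 15 min library. Of 214 measured genes in 12 lists of stress, growth and pluripotency genes, 0 were called, 1 had an unadjusted p under 0.05, and 187 had intervals within -1 and 1. In introns, 194 genes of these lists were measured, 0 were called, and 144 had intervals within -1 and 1. Of the 194, 19 had an unadjusted p under 0.05 by limma, beside 4.58% of all introns tested.

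The p53 genes showed no call in either direction. Of 32 listed targets, 31 had rows in the table and 25 passed the filter of a mean of 20 units, with a median log2 fold change of -0.11 beside -0.01 over all genes. None of the 25 was called, against 0.00733% of all genes, 8 were above 0 and 17 below, and 23 had intervals within -1 and 1. Introns of 24 targets were measured, with a median of 0.04 beside 0.02 over all introns and 0 called.

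Cdkn1a, which halts the cell cycle (ENSMUSG00000023067, chromosome 17 from 29227924 to 29237667, NCBIM37), was at 568 and 547 units at 15 min, 603 and 836 at 30 min, and 584 and 713 at 60 min. Both 60 min values lay above both 15 min values, and the log2 fold change was 0.21 (95% interval -0.31 to 0.73, adjusted p = 1.0). Its introns were at 45.6 and 80.4 units at 15 min and 41.5 and 84.2 at 60 min. Exonic and intronic levels of the 2 times overlapped in the introns only.

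Mdm2, the ligase that degrades p53, was at 2740 and 1834 units at 15 min, 3039 and 2612 at 30 min, and 2018 and 2425 at 60 min, and the 60 min values lay inside the 15 min range (log2 fold change -0.02, interval -0.58 to 0.54). Ccng1, an atypical cyclin that p53 induces, had 2068 and 1745 units at 15 min, 2406 and 2237 at 30 min, and 2008 and 2096 at 60 min (0.11, interval -0.28 to 0.51). In these 2 genes the 30 min mean was the highest of the 3, and the 15 and 60 min values overlapped. The median log2 fold change over all exonic genes at 30 against 15 min was also above 0, at 0.06. Trp53 itself was abundant, with 9847 and 7261 units at 15 min and 7419 and 9404 at 60 min, and a log2 fold change of -0.02 (interval -0.50 to 0.47).

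The members at the ends of the p53 list also missed the threshold. Eda2r, a receptor of the TNF receptor family, had the highest log2 fold change, 0.35 (interval -0.30 to 1.00), from 128 and 91.9 units at 15 min to 112 and 172 at 60 min. Ddit4, an inhibitor of mTOR signaling, had the lowest, -0.83 (interval -2.40 to 0.75). Its values were 58.7 and 174 units at 15 min and 98.8 and 32.5 at 60 min, so that its highest values came from the pair of libraries that stood apart. The growth factor gene Gdf15 was below the filter in every library, at 0 to 10.5 units, as were 5 other targets.

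**Figure D1:**
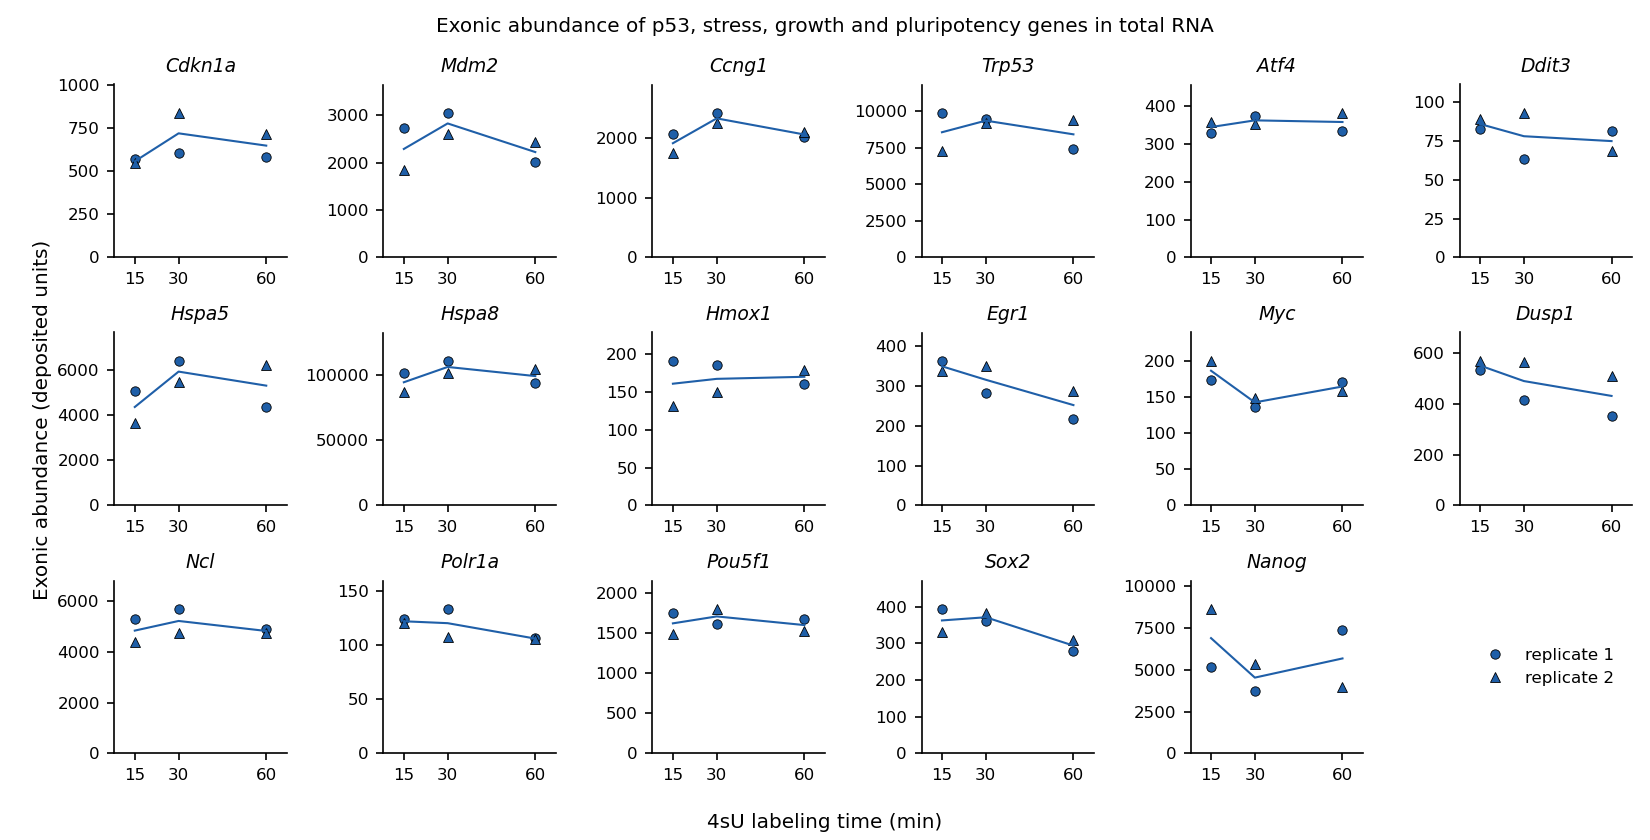
Exonic abundance in deposited units (y axis, from 0) against 4sU labeling time in min (x axis) for the 17 stress, growth and pluripotency genes that passed the filter; circles and triangles are the 2 replicates and lines join the means. Highest on average at 30 min are Cdkn1a, Mdm2, Ccng1, Trp53, Atf4, Hspa5, Hspa8, Ncl, Pou5f1 and Sox2. Lowest on average at 60 min are Egr1, Dusp1, Ddit3, Polr1a, Sox2, Mdm2, Trp53, Ncl and Pou5f1. No gene shown passed the test.

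Genes of the integrated stress response had a median log2 fold change of -0.05 over 22 measured of 25 listed, with 7 above 0, 15 below and 0 called. Introns of 19 were measured, with a median of -0.14 beside 0.02 over all introns, 6 above 0, 13 below and 0 called. Of the 19, 3 had an unadjusted p under 0.05 by limma. Atf4, which encodes the central transcription factor of the pathway, was at 331 and 360 units at 15 min and 336 and 382 at 60 min (0.05, interval -0.36 to 0.47). Ddit3, the stress factor CHOP, was at 82.9 and 89.3 units at 15 min and 81.7 and 68.4 at 60 min (-0.20, interval -0.81 to 0.41). Atf3 was listed at 3.50 to 8.30 units in every library and was not tested.

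The lowest member was Chac1, which degrades glutathione, at 41.9 and 33.6 units at 15 min against 19.3 and 34.3 at 60 min (-0.53, interval -1.47 to 0.42). The highest was Phgdh, the first enzyme of serine synthesis, at 185 and 127 units against 175 and 247 (0.44, interval -0.18 to 1.06). In both genes the values at 15 and 60 min overlapped. The introns of Chac1 were at 44.4 and 20.8 units at 15 min, 4.41 and 19.9 at 30 min, and 8.81 and 3.62 at 60 min. These intronic values did not overlap between 15 and 60 min (log2 fold change -2.22, limma's unadjusted p = 0.0095), but the gene missed the adjusted threshold.

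The unfolded protein response list had a median of -0.03 over 21 measured of 21 listed genes, with 0 called. Hspa5, the chaperone BiP of the endoplasmic reticulum, was at 5049 and 3672 units at 15 min, 6384 and 5472 at 30 min, and 4373 and 6240 at 60 min (0.28, interval -0.30 to 0.85). The values at 15 and 60 min overlapped. Eif2ak3, the sensor kinase PERK, had the highest log2 fold change at 0.29 (interval -0.66 to 1.23), and Sdf2l1, a BiP-bound cofactor, the lowest at -0.29 (interval -1.19 to 0.60).

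Heat shock genes had a median of -0.06 over 18 measured of 21 listed, and 0 were called. Hspa8, the constitutive HSP70, was at 101687 and 86804 units at 15 min and 93825 and 104112 at 60 min (0.07, interval -0.25 to 0.40). The inducible genes Hspa1a and Hspa1b, near-identical copies between which reads can be split, were listed at 9.54 to 18.4 and 6.35 to 10.2 units, below the filter. At 60 min Hspa1b was at 6.35 and 6.62 units, under its 7.60 and 6.93 at 15 min, and Hspa1a overlapped. Dnajb1, an inducible HSP40, was lowest in the list at -0.47 (interval -1.46 to 0.51), and Hspe1, the mitochondrial chaperonin HSP10, highest at 0.15 (interval -0.32 to 0.63).

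Of 15 oxidative stress and metallothionein genes, 14 were measured, with a median of 0.07 and 0 called. Hmox1, heme oxygenase 1, was at 190 and 131 units at 15 min and 161 and 179 at 60 min (0.10, interval -0.47 to 0.68). Keap1, the repressor of NRF2, was highest at 0.37 (interval -0.57 to 1.32), and Srxn1, sulfiredoxin, lowest at -0.70 (interval -1.66 to 0.26).

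**Figure D2:**
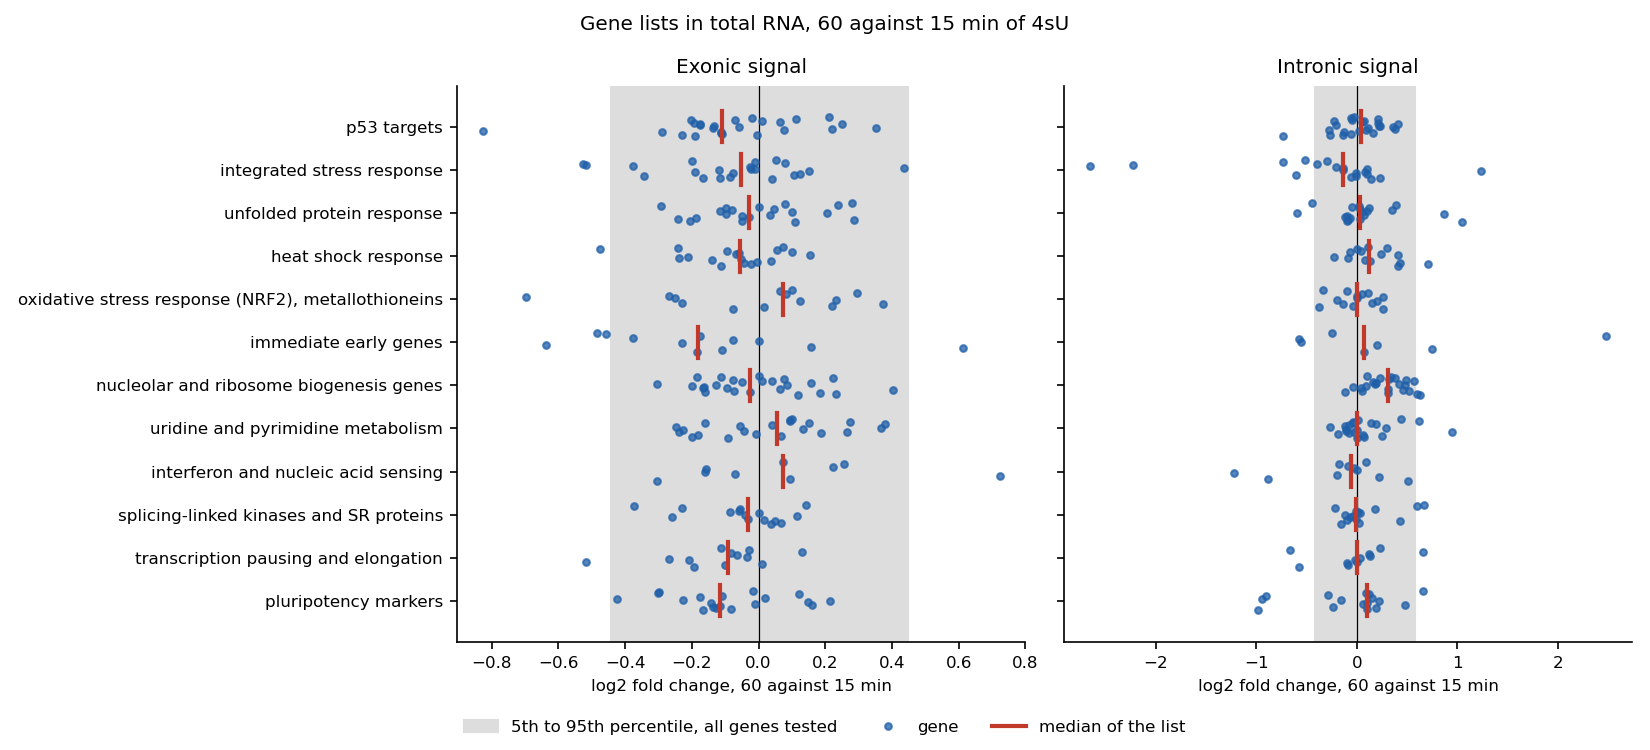
Log2 fold change between 60 and 15 min (x axis) of each measured gene in 12 lists (y axis) for exonic signal, left, and intronic signal, right; points are genes, red bars are list medians and the grey band holds the middle 90% of all genes tested. Exonic medians lie between -0.18 and 0.07, and the one intronic median above 0.2 is that of the nucleolar genes, at 0.31.

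Immediate early genes answer growth signals and handling within minutes, and most were scarce: 12 of 27 listed were measured, and Fos, Jun and 13 others were below the filter. Fos, a subunit of AP-1, was at 4.84 and 3.86 units at 15 min, 1.13 and 20.3 at 30 min, and 14.9 and 10.5 at 60 min, so that its low values did not overlap between 15 and 60 min and were not tested. The 12 had the lowest median of the 12 stress, growth and pluripotency lists, -0.18, with 9 below 0 and 0 called. Egr1, a zinc finger transcription factor, was at 362 and 337 units at 15 min, 281 and 350 at 30 min, and 216 and 287 at 60 min. Both 60 min values of Egr1 lay below both 15 min values (-0.48, interval -0.998 to 0.03, adjusted p = 1.0).

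Dusp1, a phosphatase that turns off MAP kinases, followed the same order of means, with 534 and 568 units at 15 min, 414 and 566 at 30 min, and 354 and 509 at 60 min (-0.37, interval -0.96 to 0.21). Myc, a growth-promoting transcription factor, was at 173 and 199 units at 15 min, 136 and 149 at 30 min and 171 and 158 at 60 min (-0.18, interval -0.61 to 0.26). Its introns, scarce, were at 5.13 and 0 units at 15 min, 3.57 and 7.19 at 30 min and 14.0 and 11.7 at 60 min. Their log2 fold change of 2.48 (limma's adjusted p = 0.933) was the highest of 7 measured introns of the list, 4 above 0 and 3 below. Zfp36, which destabilises AU-rich mRNAs, was the lowest of the list at -0.64 (interval -1.95 to 0.68). Ctgf, a matricellular growth factor, was the highest at 0.61 (interval -0.62 to 1.85). Both had replicates at 15 min that differed more than 2-fold.

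Genes of the nucleolus and ribosome production, where 4sU is known to interfere at high doses, had a median exonic log2 fold change of -0.03 over 25 measured of 25 listed. None was called, and all 25 intervals lay within -1 and 1. Ncl, nucleolin, was at 5273 and 4384 units at 15 min and 4905 and 4723 at 60 min (0.00, interval -0.41 to 0.41). Polr1a, the largest subunit of RNA polymerase I, was at 124 and 120 units at 15 min and 106 and 105 at 60 min, without overlap (-0.20, interval -0.67 to 0.27). Taf1d, a subunit of the polymerase I initiation factor, had the highest value of the list and the only unadjusted p under 0.05 among all listed exons. It was at 1336 and 1270 units at 15 min, 1576 and 1417 at 30 min, and 1799 and 1649 at 60 min, a stepwise order in all 6 libraries (0.40, interval 0.02 to 0.79, limma's adjusted p = 1.0). Rrp12, an export factor of small ribosomal subunits, was lowest at -0.30 (interval -0.91 to 0.30).

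The introns of this list lay mostly on one side. Of 25 genes 23 had measured introns, 21 of them above 0 and 2 below, with a median of 0.31 beside 0.02 over all 13412 introns tested. Still, 0 were called, as in all introns (0.0%), and 4 had an unadjusted p under 0.05: Dkc1, the pseudouridine synthase of box H/ACA particles, Nip7 and Pno1, which act in subunit maturation, and Nolc1, a chaperone of snoRNPs. Dkc1 introns were at 167 and 169 units at 15 min, 234 and 218 at 30 min, and 269 and 230 at 60 min, without overlap between 15 and 60 min (0.57, interval 0.14 to 1.00). At 30 min the median of the list was 0.33 above 15 min, where the median of all introns was also 0.17 above. Summed over the list, introns were at 6100 and 5536 units at 15 min and 6341 and 7693 at 60 min. How far the list median rests on single libraries is not given here. The median over all introns changed sign with the 15 min library left out, as described further on.

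The remaining lists had no calls in exons or introns. Genes that take up, salvage or make pyrimidines had a median of 0.06 over 22 measured genes. Dhodh, which acts in uridine synthesis, was highest at 0.38 (interval -0.41 to 1.17), and Slc28a1, a nucleoside carrier, was lowest at -0.25 (interval -0.72 to 0.22). Interferon and nucleic acid sensing genes had a median of 0.07 over 9 measured of 19 listed, from Bst2 at -0.30 (interval -0.85 to 0.24) to the chemokine gene Cxcl10 at 0.72 (interval -0.17 to 1.61). Cxcl10 was scarce, at 23.1 and 24.6 units at 15 min and 30.8 and 51.7 at 60 min.

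Splicing kinases and SR proteins had an exonic median of -0.03 over 15 genes, all with intervals within -1 and 1. Clk1, a kinase of SR proteins whose own introns are held back in many cells, was highest at 0.14 (interval -0.35 to 0.63), and Clk2 lowest at -0.37 (interval -0.88 to 0.13). Introns of Clk1 were at 418 and 342 units at 15 min, 655 and 560 at 30 min, and 531 and 682 at 60 min, without overlap between 15 and 60 min (0.67, interval 0.18 to 1.16, limma's unadjusted p = 0.0133). Genes of transcription pausing and elongation had a median of -0.09 over 12 measured genes, from Cobra1, a subunit of the pausing factor NELF, at -0.52 (interval -1.13 to 0.10) to Mepce, which caps 7SK RNA, at 0.13 (interval -0.37 to 0.63).

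Markers of embryonic stem cells were present at every time. Pou5f1, a core pluripotency factor, was at 1753 and 1493 units at 15 min and 1674 and 1529 at 60 min (-0.02, interval -0.43 to 0.39). Sox2 was at 393 and 332 units at 15 min and 279 and 309 at 60 min, without overlap (-0.30, interval -0.73 to 0.13). Nanog ranged more between replicates than between times, from 3712 to 8631 units, and was highest in the pair of libraries that stood apart (-0.30, interval -1.19 to 0.59). The 19 measured pluripotency genes had a median of -0.11, with 0 called, from Klf5 at -0.43 (interval -0.91 to 0.06) to Prdm14 at 0.22 (interval -0.39 to 0.83).

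Other cell types left little signal. Of 11 fibroblast markers 2 were measured, Thy1 and Acta2, and the list summed to 146 to 148 units at 15 min and 138 to 149 at 60 min, with the collagen gene Col3a1, Postn, Dcn and Lum at 0 in all 6 libraries. Of 10 endoderm markers 2 were measured, Lamb1 and Dab2, with Sox17, Foxa2 and Afp at 0 in all 6. The list summed to 775 to 818 units at 15 min and 697 to 815 at 60 min, most of it from Lamb1. Mesoderm and ectoderm markers summed to 772 to 1282 units at 15 min and 980 to 1082 at 60 min, most of it from Otx2, which embryonic stem cells also express. Introns of this list summed to 305 units in the first 15 min library and to 28.9 to 67.5 in the other 5, the difference being mainly Pax6, a neural factor, whose introns were at 226 units there and at 0 to 2.58 elsewhere. Its exons were at 57.8 and 29.6 units at 15 min, 140 and 24.3 at 30 min, and 16.1 and 21.6 at 60 min, and the part of such cells in other results was not tested. Trophectoderm markers summed to 26.5 to 49.3 units over the 6 libraries, with Cdx2 at 0 in all 6, and the 2-cell-like markers with values to 11.6 to 24.2 units. In bulk RNA, fewer cells of a type and less RNA per cell cannot be told apart.

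The exonic rows with the strongest statistics were mainly small noncoding RNAs. SNORD77, a box C/D small nucleolar RNA that guides methylation of rRNA (ENSMUSG00000065735, chromosome 1 from 162967732 to 162967812 on the plus strand, NCBIM37), lies within the Gas5 gene. It was the 1 call at 60 against 15 min, and it was not called with all 12 libraries in 1 fit or with a linear term in labeling time. The 3 calls with all 12 libraries were mmu-mir-466c, Mir466b-5 and Mir466b-7, all lower at 60 min. These 3 were listed at 0 in every total RNA library of 30 and 60 min. They thus passed the filter through the 15 min libraries alone, and their p depends on the other values being taken as 0. SNORD77 was listed at 0 in both 15 min libraries, at 1316 and 902 units at 30 min, and at 660 and 803 at 60 min (limma's adjusted p = 5.25e-05). No fold is given against libraries listed at 0. At 81 bp SNORD77 is shorter than the single-end reads that the paper describes, as are the miRNA loci named here and below. How well the levels of such short rows are measured was not tested. It passed the filter through the 30 and 60 min libraries alone, and as both 15 min values are under the lower limit of the table and show no spread, the p depends on their being taken as 0. In labeled RNA of the same times and replicate numbers it was present at 15 min, at 329 and 900 units, and ranged from 92.2 to 6972 units at 60 min. The host gene Gas5 had exons at 32136 and 38729 units at 15 min and 35530 and 32695 at 60 min (-0.05, interval -0.41 to 0.31). Gas5 introns were at 14227 and 10349 units at 15 min and 19412 and 16757 at 30 min. At 60 min they were at 11879 and 20593 units, overlapping those at 15 min (0.37, interval -0.25 to 0.98).

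Of the 10 exonic rows ranked highest at 60 min, 7 were snoRNAs, and 6 of these missed the threshold. Rows that missed it were ranked only if 60 and 15 min values did not overlap and the 30 min mean lay between theirs. An order by labeling time is thus partly by selection. The SNORA4 copy within the translation factor gene Eif4a2, a box H/ACA snoRNA (ENSMUSG00000065208), was at 47.6 and 41.5 units at 15 min, 115 and 112 at 30 min, and 244 and 180 at 60 min (2.21, interval 1.68 to 2.75, limma's adjusted p = 0.0974). Its values were in the order of labeling time in all 6 libraries, while exons of Eif4a2 were at 39693 and 40308 units at 15 min and 39866 and 46332 at 60 min. Snora61, within the noncoding host Snhg12, was likewise ordered, at 73.2 and 91.2, then 114 and 167, then 208 and 212 units (1.35, interval 0.77 to 1.93). The introns of Snhg12, whose span holds the snoRNA, were at 480 and 403, 748 and 557, and 755 and 1019 units (0.99, interval 0.45 to 1.53, adjusted p = 0.727).

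The snoU109 copy within Tmem167 was at 29.9 and 31.5 units at 15 min, 69.9 and 54.0 at 30 min, and 71.8 and 92.0 at 60 min (1.38, interval 0.74 to 2.01). SNORA18, within Taf1d, was at 247 and 218 units at 15 min, 288 and 202 at 30 min, and 560 and 449 at 60 min, with a 30 min value below both at 15 min (1.11, interval 0.55 to 1.67). A SNORA40 copy (ENSMUSG00000088651) and SNORA54 were listed at 0 in both 15 min libraries and at 40.9 to 93.2 and 13.3 to 64.2 units at 60 min. Both passed the filter through the 30 and 60 min libraries alone. As a class, 202 snoRNAs had a median log2 fold change of 0.17 beside -0.01 over all genes, with 118 above 0 and 1 called. Another class, the 39 rows annotated as misc_RNA, lay on the other side, with a median of -0.41 and 9 above 0, and 0 called. Of the 202 snoRNAs, 97 were listed at 0 in at least 1 library, so the fold changes of many rest on values near the lower limit of the table. Among the 39 misc_RNA rows this held for 5.

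**Figure D3:**
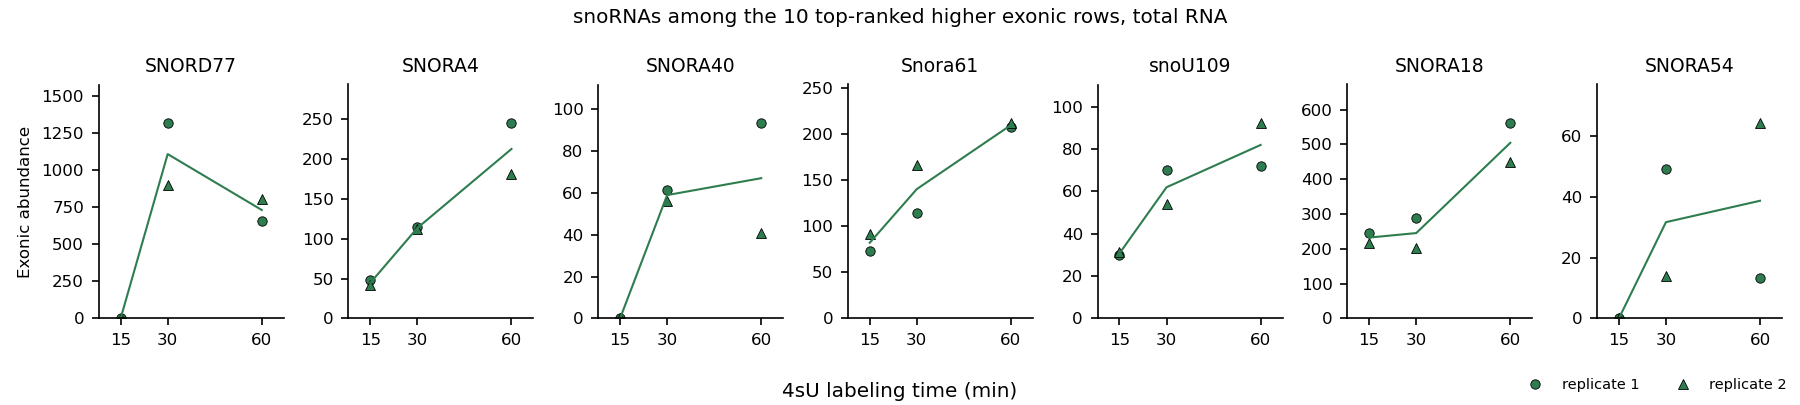
Exonic abundance in deposited units (y axis, from 0) of 7 snoRNAs against 4sU labeling time in min (x axis); circles and triangles are the 2 replicates and lines join the means. SNORD77, the only one that passed the test, is at 0 in both 15 min libraries. SNORA4, Snora61 and snoU109 are in the order of labeling time in all 6 libraries, which the ranking favored.

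The other 3 rows ranked highest, the predicted miRNAs AC103351.1 and AC116151.1 and the coding gene Gm11032, were listed at 0 at 15 and 30 min and at 59.3 to 479 units at 60 min. These 3 passed the filter through the 60 min libraries alone. Of the 10 ranked lowest, 6 were miRNA loci at 0 in all 4 libraries of 30 and 60 min and at 118 to 719 units at 15 min. These 6 passed the filter through the 15 min libraries alone. They include Mir466b-5, Mir466b-7 and mmu-mir-466c, copies of 1 family between which reads can be split. The remaining ones were Usf2, Ampd3, Fam53a and the pseudogene Gm15982, each with an adjusted p of 1.0. Usf2, a helix-loop-helix factor that binds E-boxes, was at 430 and 361 units at 15 min, 232 and 283 at 30 min, and 233 and 210 at 60 min (-0.83, interval -1.30 to -0.36). Ampd3, an AMP deaminase, was at 69.1 and 100 units at 15 min, 43.4 and 44.8 at 30 min, and 28.3 and 40.5 at 60 min (-1.27, interval -2.005 to -0.54). In both genes all later values lay below both 15 min values.

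At 30 against 15 min, 9 of 13635 exonic rows passed (0.066%), 4 higher (0.0293%) and 5 lower (0.0367%), and with the replicate number as a block 3 passed. Higher at 30 min were SNORD77, SNORA40 and 2 U6 copies, all listed at 0 in both 15 min libraries. Lower were Gm17571 and 4 predicted miRNAs, all listed at 0 at 30 min. At 60 against 30 min, 3 rows passed (0.022%), all higher at 60 min, and with the replicate block 2. These were Gm17571, AL928832.1 and AC122376.1, which were also present in both 15 min libraries and at 0 in both 30 min libraries. The 3 comparisons share libraries, and all the calls are of rows listed at 0 in both libraries of at least 1 time. Each of these rows thus passed the filter through the other libraries alone.

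Introns made up a similar share of the signal at each time. The share was 7.21% and 6.53% at 15 min, 7.34% and 7.41% at 30 min, and 7.29% and 6.65% at 60 min, and its slope on labeling time came to 0.00514 percentage points over 45 min (two-sided exact permutation test over 90 assignments of the 6 libraries, p = 1.0). With the median over genes of the intronic share the change was 0.492 percentage points over 45 min (exact permutation p = 0.689).

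Single introns between 60 and 15 min passed in 0 of 13412 genes (0.0%), with a lowest adjusted p of 0.0746 by limma. An unadjusted p under 0.05 was reached by 614 introns (4.58%), with 454 higher and 160 lower at 60 min. This number also rests on single libraries: it was 1101 without the first 15 min library and 79 with all 12 libraries in 1 fit. The median over all introns was 0.14 without the first 15 min library and -0.11 without the second, so the balance of higher and lower introns turns on which is kept. The call rests on the genes tested. With protein-coding genes alone, an alternative added after the data were seen, Spcs1 and Klhl35 passed, both at an adjusted p of 0.032, and with a stricter filter Spcs1, Scamp3 and Rbm17 passed, at 0.00601 for the first and 0.0381 for the others. Over 16 settings the adjusted p of Spcs1 ranged from 0.00422 to 1.0, and its log2 fold change from 1.52 to 2.30.

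Spcs1, a subunit of the signal peptidase of the endoplasmic reticulum (ENSMUSG00000021917, chromosome 14 from 31813012 to 31814858 on the minus strand, NCBIM37), had introns at 18.5 and 21.5 units at 15 min, 64.0 and 48.4 at 30 min, and 96.1 and 93.9 at 60 min. The 3 times did not overlap, and the difference of 60 and 15 min was 2.20 on the log2 scale (interval 1.70 to 2.69). Its exons were at 320 and 351 units at 15 min and 256 and 415 at 60 min, with overlap (-0.04, interval -0.66 to 0.58).

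Rbm17, a splicing factor of the U2 particle, had introns at 50.1 and 38.9, 68.8 and 73.6, and 135 and 128 units at 15, 30 and 60 min (1.55, interval 1.08 to 2.03, adjusted p = 0.178). Its exons, at 2825 and 3316 units at 15 min and 2716 and 2383 at 60 min, had a log2 fold change of -0.27 (interval -0.72 to 0.18). Introns and exons of this gene thus differed in sign, and the exonic interval included 0. Scamp3, a membrane protein of secretory carriers, had introns at 39.1 and 42.4, 81.9 and 107, and 121 and 120 units (1.54, interval 1.06 to 2.02, adjusted p = 0.178). The exons of Scamp3 were also in the order of labeling time, at 394 and 394, 443 and 532, and 551 and 565 units (0.50, interval 0.08 to 0.92).

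Klhl35, a member of the kelch-like family, was scarce. Its introns were at 0 and 1.82 units at 15 min, 21.5 and 16.0 at 30 min, and 40.7 and 31.6 at 60 min (4.46, interval 3.40 to 5.51, adjusted p = 0.0746). The size rests on the pseudocount, and with a pseudocount of 20 it was 1.42. Its exons were at 0 and 2.43, 12.7 and 10.3, and 33.6 and 23.6 units, below the exonic filter on average. Mylpf, a myosin light chain of fast muscle, had introns at 3.30 and 2.27, 4.60 and 4.5, and 46.3 and 22.4 units (3.15, interval 2.30 to 4.00, adjusted p = 0.126), or 1.22 with a pseudocount of 20, and its exons overlapped between the times. In all 5 of these genes the introns were stepwise ordered over the 6 libraries, with 15 min lowest. The ranking required 60 and 15 min values without overlap and a 30 min mean between theirs, so this order is largely by selection.

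**Figure D4:**
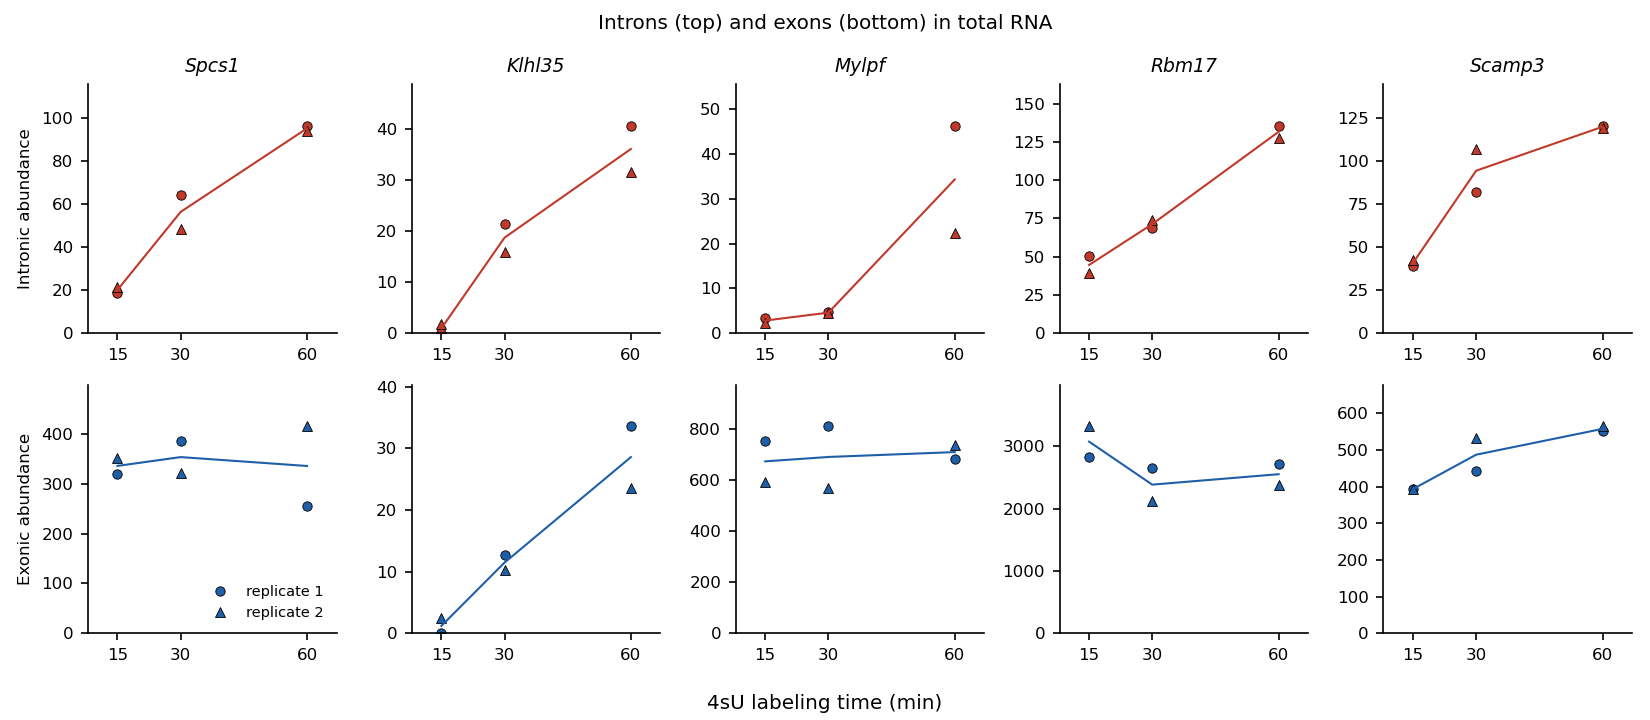
Abundance in deposited units (y axes, from 0) of introns, top, and exons, bottom, against 4sU labeling time in min (x axis) for the 5 introns ranked highest at 60 against 15 min; circles and triangles are the 2 replicates and lines join the means. Introns are in the order of labeling time in all 6 libraries, which the ranking favored, and exons are so for Klhl35 and Scamp3 only.

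Introns in stepwise order, with both 15 min values below both 30 min values and these below both 60 min values, numbered 151 of 13412 (1.13%), and the reverse order was found for 61 (0.455%). Either order is 1 of the 90 assignments of 6 libraries to 3 pairs, a share to which 151 of 13412 is close, and 61 is below it. In exons the counts were 84 (0.616%) and 79 (0.579%) of 13635, and for the ratio of introns to exons 132 (1.37%) and 51 (0.529%) of 9643. These counts describe the order of 6 libraries, with no test. Equal odds for the 90 assignments need libraries that are equally alike, which these were not. The counts therefore cannot show whether introns in either order are in excess. The order chose the 151 introns, so their own log2 fold changes are above 0 by selection. The 137 of them with measured exons had a median exonic log2 fold change of 0.02. Their genes spanned a median of 15400 bp, against 24950 bp for all genes with tested introns and 21790 bp for the 61 in reverse order.

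Examples, chosen after their values were seen, include Psma4, a subunit of the proteasome, at 127 and 126, 185 and 221, and 243 and 234 units (0.91, adjusted p = 0.727). Timm44 and Timm50, which import proteins into mitochondria, had log2 fold changes of 0.97 and 1.09, and Idh3b, of the citric acid cycle, had 1.10, all at the same adjusted p. Mthfd2, a mitochondrial folate enzyme induced by ATF4, was the highest intron of the integrated stress response list, at 41.4 and 27.5, 61.2 and 56.6, and 66.5 and 97.9 units (1.23, interval 0.61 to 1.86), while the lowest of that list was Ppp1r15a at -2.66 (interval -5.88 to 0.57). Of the 151 genes, 5 hold a snoRNA within their span (3.31%), against 1.91% of all 13412.

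Labeled RNA of the same times and replicate numbers gave another reading of these introns. Between 60 and 15 min the labeled introns of the 151 genes had a median log2 difference of -0.11, with 52 above 0, against a median of -0.02 and 6090 above 0 among all 13412. Spcs1 introns in labeled RNA were at 82.0 and 191 units at 15 min, 154 and 109 at 30 min, and 56.8 and 45.9 at 60 min, opposite in order to total RNA between 15 and 60 min. Those of Rbm17 were at 304 and 112 units at 15 min and 232 and 157 at 60 min, with overlap. In both genes the labeled replicates at 15 min lay far apart, and agreement between labeled libraries is not given here. Labeled RNA at 60 min also holds RNA made over a longer time than at 15 min, so it is not a like measure to total RNA.

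**Figure D5:**
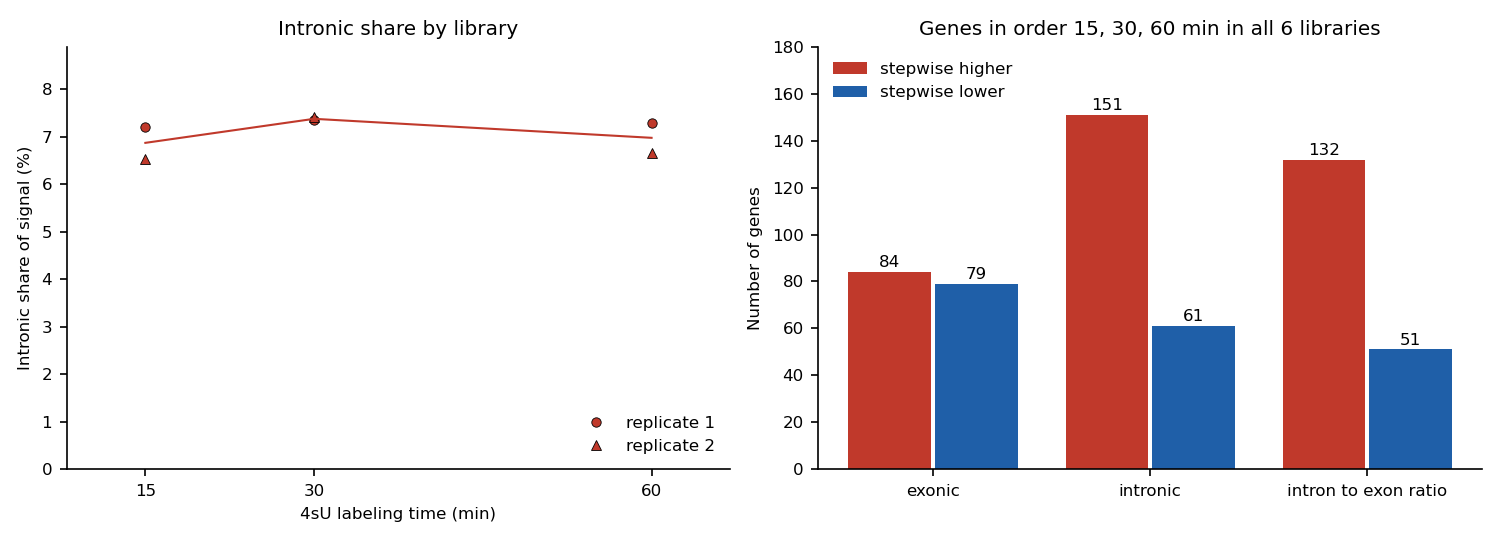
Left, intronic share of the signal in percent (y axis, from 0) against 4sU labeling time in min, with circles and triangles for the 2 replicates; right, number of genes whose 6 libraries are in the order 15, 30, 60 min (red) or the reverse (blue) for exons, introns and their ratio. The share stays between 6.53% and 7.41%, and 151 of 13412 introns are ordered upward and 61 downward, where each order is 1 of 90 assignments of the libraries.

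Among introns lower at 60 min, Lage3, a subunit of the complex that makes t6A in tRNA, was at 22.5 and 21.5, 14.7 and 16.5, and 9.83 and 8.60 units (-1.17, interval -1.65 to -0.70, limma's adjusted p = 0.446). Its exons, at 309 and 337 units at 15 min and 426 and 510 at 60 min, lay on the other side, without overlap. Cntf, ciliary neurotrophic factor, was at 9.04 and 15.9 units at 15 min and 0 and 2.93 at 60 min (-2.71, interval -4.18 to -1.25). The noncoding genes Gm11769, Gm14257 and Gm14210 made up the other top ranks, the first and second listed at 0 in all 4 libraries of 30 and 60 min. Introns of Eif2ak2, the double-stranded RNA sensor PKR, were at 73.0 and 78.4 units at 15 min, 51.2 and 70.2 at 30 min, and 40.8 and 40.5 at 60 min (-0.88, interval -1.38 to -0.38), while its exons had a log2 fold change of 0.10 (interval -0.34 to 0.53).

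The ratio of introns to exons passed in 0 of 9643 genes (0.0%), with 367 at an unadjusted p under 0.05, 259 higher and 108 lower. Highest ranked were Spcs1, with a log2 change of the ratio of 2.24 (interval 1.55 to 2.92), Mylpf with 3.06 (interval 2.04 to 4.08) and Rbm17 with 1.82 (interval 1.11 to 2.53). Among the lowest ranked were Lage3 with -1.70 (interval -2.41 to -1.0) and the zinc finger gene Zfp286 with -1.66 (interval -2.58 to -0.74). The lowest adjusted p by limma was 0.689.

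Genes were also divided into 4 equal groups by span and by labeling, as a description with no test. Exonic medians at 60 against 15 min were 0.04, 0.02, -0.02 and -0.06 from the shortest to the longest genes, and intronic medians were 0.07, 0.04, 0.01 and -0.01. Protein-coding genes divided by their ratio of labeled to total RNA at 30 min had medians of -0.05, -0.03, -0.01 and -0.00 from the least to the most labeled group.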

How the data were processed

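The authors removed reads mapping to rRNA with STAR 2.5.0, aligned the rest to exonic and intronic sequences and quantified them with RSEM, per the labels on build mm10. The deposited table holds a signal per transcript, a length-normalized abundance and not counts, with values of 1 or less missing; neither the scaling nor the cutoff is given in the sources used here. Sequencing depth is unknown, so no counting error was computed, and whether counting used strand is not given.

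Missing values were taken as 0 and transcripts were summed to genes through GENCODE M1 (NCBIM37), which held 83847 of 111672 Ensembl transcripts (75.1%) and 71.0% to 75.9% of the exonic signal. Genes with a mean of at least 20 (exons) or 5 (introns) over the 6 libraries entered limma 3.58.1 (R 4.3.3) on log2(value + 1), with 3 time groups and a trended prior variance. Calls were made at a Benjamini-Hochberg adjusted p of 0.05. This scale understates fold changes of low genes. The fit was also run on simulated data, with no outcome given here. Tables and figures were made in Python 3.11.15 (pandas 2.3.3, matplotlib 3.10.9, numpy 2.4.6, and scipy 1.17.1 for permutation tests).

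The labels give the replicate numbers as biological replicates, the 2 sister cultures, but same-numbered libraries did not deviate together throughout. Deviations of same-numbered libraries correlated over exonic genes at -0.008 (15 and 30 min), -0.227 (15 and 60 min) and -0.102 (30 and 60 min), and over introns at 0.175, -0.238 and -0.0902. The block may therefore not hold like libraries together.

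The gene lists, the filters and the members described were chosen with earlier results of these data known. Named genes were the 23 genes of a fixed list, of which 17 passed the exonic filter, the ends of each gene list, and the top genes of each comparison: 10 per direction for exons, 5 for introns and 3 for the ratio and for the other contrasts. Where fewer genes passed, ranks were filled by unadjusted p among genes whose 60 and 15 min values did not overlap and whose 30 min mean lay between the means of the other times. A few genes beyond this rule are named as examples, chosen after their values were seen. The 13 mitochondrially encoded genes and listed genes without a match were not analysed here. One gene that the rule for the ratio names is not reported here.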

Additional observations from a re-analysis of the deposited data

How the results depend on the processing

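Called exonic genes between 60 and 15 min numbered 1, and 8 with a pseudocount of 20, 14 without a filter, 3 with all 12 libraries in 1 fit, 0 with a linear term in labeling time and 0 with protein-coding genes alone, which like the crossed pairing was added after the data were seen. Between 30 and 15 min the 9 calls became 3 with the replicate block, 28 without a filter, 4 with a stricter filter, 5 after rescaling by the median ratio, 3 with all 12 libraries and 1 with protein-coding genes alone. Between 60 and 30 min the 3 calls became 1 with a pseudocount of 20, 10 without a filter, 0 with all 12 libraries and 1 with protein-coding genes alone. Introns went from 0 calls to 1 with a pseudocount of 20, 3 with the stricter filter, 7 with transcripts in place of genes and 2 with protein-coding genes alone, and the ratio from 0 to 6 with transcripts. Beside these, the replicate block took the 3 calls between 60 and 30 min to 2 and left the counts of the exonic, intronic and ratio fits between 60 and 15 min as they were. With the replicate numbers of 60 min crossed, called introns numbered 8 and exonic calls between 60 and 30 min 6. Leaving out 1 library at a time gave 1 to 37 exonic calls between 60 and 15 min, 1 to 38 between 30 and 15 min, 0 to 32 between 60 and 30 min, and, between 60 and 15 min, 0 to 7 introns and 0 to 4 ratios. Without the second 30 min library, 65 introns were called between 30 and 15 min and 60 between 60 and 30 min, against 0 and 0 with all 6 libraries. Between 60 and 15 min, exonic calls numbered 37 and 33 without the first or the second 60 min library, 4 and 13 without the first or the second 30 min library and 1 without either 15 min library, and the lone sample of a group is then assumed to vary like the others. Introns numbered 7 without either 30 min library, 2 or 3 without the first or the second 60 min library and 0 without either 15 min library. The change in intronic share over 45 min ranged from -0.354 to 0.426 percentage points. The cause of these shifts was not tested. Exonic list medians moved beyond the replicate spread for the p53 targets (-0.042) and the heat shock list (0.014) with transcripts, the unfolded protein response with the stricter filter (0.0355) and the interferon list without a filter (-0.0699). Leaving out 1 library at a time, the medians ranged from -0.111 to -0.0026 for p53 targets, -0.158 to 0.0456 for the integrated stress response, -0.0531 to 0.0243 for the unfolded protein response, -0.126 to 0.01 for heat shock, -0.12 to 0.185 for oxidative stress, -0.263 to -0.0979 for immediate early genes, -0.0593 to 0.0711 for nucleolar genes, -0.0089 to 0.162 for uridine genes, -0.0041 to 0.194 for interferon genes, -0.0758 to 0.101 for splicing kinases, -0.296 to 0.0966 for elongation and -0.114 to -0.045 for pluripotency. Of 254 alternative values for the 17 measured genes of the fixed list, 0 were called, 12 moved by more than the replicate spread and 17 changed sign. With 2 libraries per time, half-widths near 0.60 leave smaller changes of single genes undetected. These intervals are unadjusted, so larger changes can miss the adjusted threshold as well. In exons it was missed by Usf2, at -0.83, and by SNORA4, at 2.21.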
